A study of Mus musculus with 5 samples.

Results

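Notch1, Notch2, Hes1 and Hey1 were followed at their listed transcription start sites in an ATAC-seq time course of mouse neural progenitor cells. ATAC-seq reads out open chromatin by where a transposase inserts sequencing adapters. The 4 genes were chosen by name, and every row of the deposited start-site table annotated to one of them was taken, which gave 21 of 34714 sites. The cells were C17.2, an established multipotent mouse neural stem cell line of CD1 x C57BL/6 background, grown with serum; differentiation was induced by Knockout DMEM with N2 supplement and no serum. Libraries were made at 0 h (the control by its description), 0.5, 1, 1.5 and 2 h, with 1 library per time, and the treatment label names neural induction for all 5. All libraries come from the same line, an immortalised one, and nothing in the labels says whether the times share a culture.

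Notch receptors are single-pass membrane proteins that are cut when a neighbouring cell presents a Delta or Jagged ligand. The freed intracellular domain enters the nucleus, joins the DNA-binding protein RBPJ and a Mastermind coactivator, and turns on target genes. Among these targets are the basic helix-loop-helix repressors of the Hes and Hey families, which hold back proneural genes and keep neural progenitors undifferentiated. Notch1 and Notch2 are receptors, and Hes1 and Hey1 are effectors.

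Promoter windows are printed for the receptors only, because the RefSeq promoter table (GRCm38.p6) held 2 of the 4 genes, Notch1 and Notch2. Their listed sites lie within 410 bp of the RefSeq 5′ end, and not all of them fall inside the windows. Each window runs from 250 bases before to 50 bases after the gene's start, 5′ to 3′ on the gene's strand, and capitals mark GC boxes (CCGCCC or its reverse complement GGGCGG).
Notch1, chr2:26503773-26504072, minus strand: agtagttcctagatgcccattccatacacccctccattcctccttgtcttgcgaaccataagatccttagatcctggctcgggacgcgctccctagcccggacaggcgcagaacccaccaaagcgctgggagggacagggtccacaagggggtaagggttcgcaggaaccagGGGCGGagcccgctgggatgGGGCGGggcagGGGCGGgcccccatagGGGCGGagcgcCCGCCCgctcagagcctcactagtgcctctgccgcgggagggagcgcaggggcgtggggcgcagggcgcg
Notch2, chr3:98013288-98013587, plus strand: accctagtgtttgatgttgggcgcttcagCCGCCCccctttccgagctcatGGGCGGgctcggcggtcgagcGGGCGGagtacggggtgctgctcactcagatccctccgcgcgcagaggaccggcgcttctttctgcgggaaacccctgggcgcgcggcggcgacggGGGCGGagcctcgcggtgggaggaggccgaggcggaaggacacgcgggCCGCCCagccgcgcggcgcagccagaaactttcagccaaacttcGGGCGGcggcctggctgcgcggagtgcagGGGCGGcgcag
The Notch1 window had 5 GC boxes and the Notch2 window 7, and 35.7% of 32851 mouse promoter windows of this length held at least 1. G and C made up 68.3% of the Notch1 window and 73.0% of the Notch2 window, against a median of 52.7% over all windows. CG dinucleotides numbered 23 in the Notch1 window and 41 in the Notch2 window, with a median of 7 over all windows, and 21.5% and 3.46% of windows had at least as many. The RBPJ motif TGGGAA, searched on both strands, was in neither window (25.6% of windows held it), nor was its longer form GTGGGAA (6.38%). The N box CACNAG, a motif of Hes factors, matched 3 times in the Notch1 window, where 2 of the matches overlap, and once in the Notch2 window, and 42.5% of windows held it. The E box CANNTG was in neither window, and 72.3% of all windows held it. A match or its absence describes these letters only. One Notch1 site, at chr2:26503827-26503832, lies at bases 241 to 246 of the printed window, and 2 Notch2 sites lie at bases 106 to 109 and 219 to 222.

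Each value is a whole number, from 0 to 10 over the whole table, read as how many intervals of a library's BED file lay over the site and called entries below; a number given to each called peak would look alike. A site with 1 or more entries is called covered. Entries are not reads and the read depth is unknown, so a site at 0 was not called open in that library, which does not show that it was closed. Values given in time order are those of the libraries of 0, 0.5, 1, 1.5 and 2 h. The libraries differed as a whole, with 47.6%, 58.7%, 51.2%, 66.9% and 65.7% of all sites covered in time order. Since no time was replicated, the error of a value is unknown and no difference between times was tested. Of 8 progenitor marker genes looked for, 3 had listed sites: Pax6 and Msi1 held 0 entries at every time and Nes held 2 at 1.5 h and 0 at the other times, so the table gives little to check the cell type against.

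Notch1, the receptor best known for maintaining neural stem cells, was uncovered at 0 h and held its most entries at 2 h. Its RefSeq gene lies on the minus strand of chromosome 2 (26457902 to 26503822, GRCm38; ENSMUSG00000026923). The 4 listed sites span 345 bp, between 5 bp upstream and 334 bp downstream of the 5′ end. All 4 sites held the same values, 0, 1, 0, 1 and 3 entries in time order. They were counted as 1 interval and are not 4 separate observations. The values did not climb steadily, as Notch1 was uncovered again at 1 h, the later library with the lowest covered share of all sites. Of 8034 genes, 143 (1.78%) shared this order of coverage, uncovered at 0 and 1 h and covered at 0.5, 1.5 and 2 h. The part of the differing library-wide coverage in this pattern was not tested.

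Notch2, the second receptor of the set, held the most entries of the 4 genes at 0 h and its fewest at 1.5 and 2 h. Its RefSeq gene lies on the plus strand of chromosome 3 (98013538 to 98150367; ENSMUSG00000027878), and its 4 sites run from 142 bp upstream to 410 bp downstream of the 5′ end, over 560 bp. Each site held 4, 3, 3, 2 and 2 entries in time order. The promoter was covered at every time, and no step between neighbouring times was upward. Such a course, never upward and lower at 2 h than at 0 h, was seen in 729 of 8034 genes (9.07%), and in 224 (2.79%) the difference was 2 or more entries, as at Notch2. Fewer entries at 2 h were common among genes that began at the Notch2 level: of 772 genes with 4 entries at 0 h, 508 (65.8%) held fewer at 2 h, and 233 (30.2%) held 2 or fewer.

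The receptors thus stood in opposite order at the ends of the series. At 2 h Notch1 held 3 entries and Notch2 held 2, whereas at 0 h Notch1 held 0 and Notch2 held 4. The difference between Notch1 and Notch2 at 2 h is a single entry, the smallest the scale allows, and without replicates its error is unknown. Of the 2189 genes uncovered at 0 h, 188 (8.59%) held 3 or more entries at 2 h, as Notch1 did.

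Hes1, the repressor that oscillates in progenitors and is the standard readout of Notch activity there, kept the same value through the series at its main upstream sites. Its RefSeq gene lies on the plus strand of chromosome 16 (30065357 to 30067796; ENSMUSG00000022528). The deposited table places the gene's start at 30064384, which is 973 bp further upstream, so distances depend on the annotation. By RefSeq, 7 of the 8 listed sites lie upstream of the 5′ end, and by the deposited annotation 3 overlap the gene. A run of 4 sites, between 30064193 and 30064389, held 1 entry in every library, the lowest value that counts as covered. The run reaches the start placed by the deposited table, but no listed Hes1 site lies nearer than 914 bp to the RefSeq 5′ end. Only 119 of 8034 genes (1.48%) held 1 entry in every library at their chosen site, while 893 (11.1%) were covered with an equal number of entries, of any size, in all 5.

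The other Hes1 sites differed from these and from each other. The site at 30064441 to 30064443, next downstream, held 0 entries at 0 h and 1 in each later library. Such coverage, at every time but 0 h, was found at 2061 of 34714 sites (5.94%). The site at 30066280 to 30066283, 923 bp inside the RefSeq gene, did the reverse and held 1 entry at 0 h and 0 in each later library. Coverage at 0 h alone was rare, at 48 sites (0.138%). The 2 sites furthest upstream, 1834 and 1759 bp from the RefSeq 5′ end, were at 0 in every library. In each library 5 of the 8 Hes1 sites were covered, and they were the same 5 at all later times. The differences at Hes1 are single entries, at single sites, and rest on the 0 h library.

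Hey1, a Hes-related repressor that is also induced by Notch, had no covered site at 0 h and all sites covered at 1.5 and 2 h. Its RefSeq gene lies on the minus strand of chromosome 3 (8663359 to 8667038; ENSMUSG00000040289). All 5 listed sites lie upstream, 255 to 417 bp from the RefSeq 5′ end, within 169 bp, and the deposited table places the gene's start 218 bp nearer to them. The outermost sites, at 8667293 to 8667298 and 8667455 to 8667461, held 0, 2, 2, 3 and 3 entries in time order. The 3 sites between them held 0, 0, 0, 3 and 3. Thus at 0.5 and 1 h an uncovered stretch was flanked on both sides by covered sites, and at 1.5 and 2 h the whole group was covered. The covered Hey1 sites thus numbered 0, 2, 2, 5 and 5 of 5 in time order.

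That course was set beside the rest of the table. Sites at most 200 bp apart were joined into groups, and groups of 3 or more sites with at least 2 covered were examined. An uncovered site between covered ones was found in 6.68% of these at 0.5 h and in 5.84% at 1 h. Of 4037 groups of 3 or more sites, 2, Hey1 included, were uncovered at 0 h, had such a gap at 0.5 and 1 h and were covered throughout at 1.5 and 2 h. This count was chosen after the Hey1 values were seen and follows them library by library, so its small size says little about Hey1. A broader class, sites covered at 1.5 and 2 h only, held 1966 sites (5.66%), among them the 3 inner Hey1 sites. At the level of genes, 190 of 8034 (2.36%) were uncovered at 0 h and covered in each later library, as the outermost Hey1 sites were. Only the 2189 genes uncovered at 0 h could follow that course. Entries that never decreased between neighbouring times and ended 3 or more above 0 h were seen in 128 genes (1.59%), Hey1 among them.

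**Figure D1:**
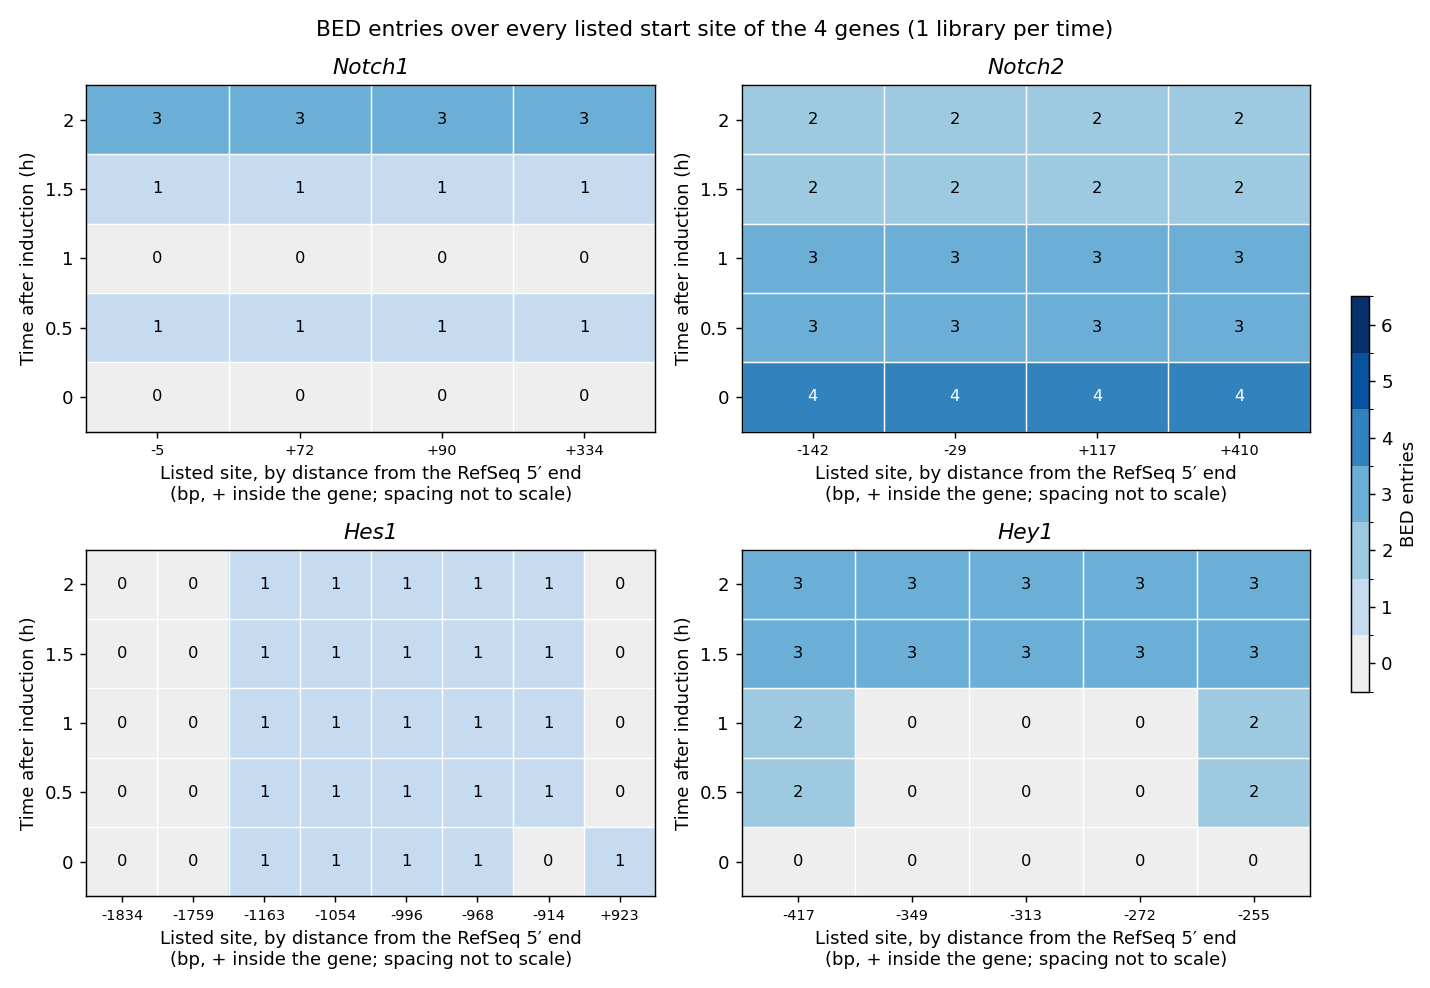
BED entries at every listed site of the 4 genes, with 1 column per site, ordered and labelled by its distance in bp from the RefSeq 5′ end (not to scale), and 1 row per time after induction in h; colour and number give the entries. Notch1 and Notch2 columns are identical within each gene, the Hes1 columns differ by single entries, and the 3 inner Hey1 sites stay at 0 through 1 h and hold 3 at 1.5 and 2 h.

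Counted by gene, 2, 4, 3, 4 and 4 of the 4 were covered in time order. For this each gene was given 1 site, that with the highest mean over the 5 libraries, or among equal means the one nearest the RefSeq 5′ end. Over all 8034 genes the covered share was 72.8%, 76.6%, 72.5%, 79.3% and 78.4% in the same order. At 0.5 h, 2 genes (Notch1 and Hey1) held more entries than at 0 h, beside 28.1% of all genes, and 1 (Notch2) held fewer, beside 15.6%. At 1 h, 1 gene (Hey1) held more, beside 20.6% of all genes, and 1 (Notch2) fewer, beside 21.9%. At 1.5 h, Notch1 and Hey1 held more, beside 31.3% of all genes, and Notch2 fewer, beside 17.8%. At 2 h the same genes differed from 0 h in the same directions, beside 25.7% of all genes with more and 22.9% with fewer. Counts among 4 genes are too small to set against these shares, and all 4 comparisons rest on the same 0 h library. Genes uncovered at 0 h and covered later made up 4.79%, 2.79%, 7.09% and 6.61% of all genes at the 4 later times. Notch1 was among them at 0.5, 1.5 and 2 h, and Hey1 at all 4. Only the 2189 genes uncovered at 0 h could be among them, and of those 531 (24.3%) were covered at 2 h.

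**Figure D2:**
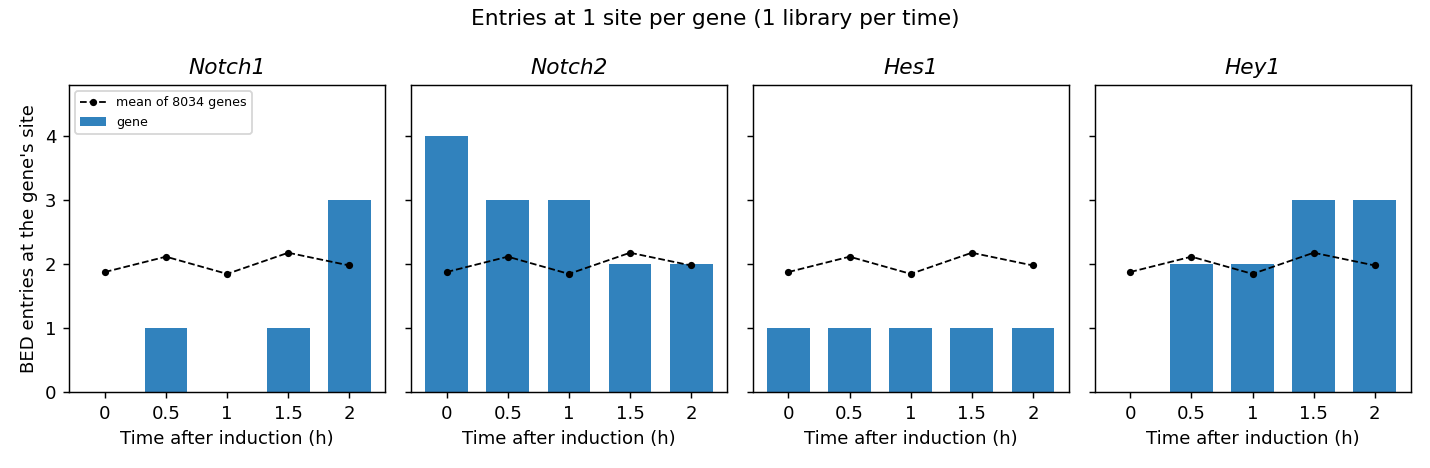
BED entries at 1 site of each gene against time after induction in h (bars, 1 library each), with the mean over 8034 genes as a dashed line. Notch2 holds 4 entries at 0 h and 2 at 2 h, Hey1 and Notch1 hold 0 at 0 h and 3 at 2 h, and Hes1 holds 1 throughout.

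Counted by site, 9, 15, 11, 18 and 18 of the 21 sites were covered in time order, or 42.9%, 71.4%, 52.4%, 85.7% and 85.7%. The order of the libraries was close to that over all sites, with 0 h lowest, 1 h next and 1.5 h and 2 h highest in both. In all 5 libraries 8 sites were covered, the 4 of Notch2 and 4 of Hes1, and 2 sites, both of Hes1, in none. Over all 34714 sites, 44.0% were covered in every library and 30.6% in none. Sites of a gene mostly share their values: joined where at most 500 bp apart and equal in every library, the 21 sites made 9 intervals, 1 each for Notch1 and Notch2, 4 for Hes1 and 3 for Hey1.

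Genes with the most similar course were sought by the sum of absolute differences in entries over the 5 libraries. Exactly 1 gene, Gxylt2 on chromosome 6, had the values of Notch1. The Notch2 course was shared by 17 genes, among them Arpc3, Fam92a and Gm29247. The Hey1 course was shared by 5, among them Dok4, Fbxl17 and Ppp2r5a, and the Hes1 course by 118, among them 4932443L11Rik, AA467197 and Abhd13. No gene of the Notch pathway list below had the exact course of any of the 4. With small whole numbers in 5 libraries, identical courses are a description only.

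The wider pathway was described with a list of 82 genes, of which 58 had a listed site, the 4 genes included. At 0.5, 1, 1.5 and 2 h, more entries than at 0 h were held by 12, 10, 15 and 13 of the 58, or 20.7%, 17.2%, 25.9% and 22.4%. Fewer were held by 11, 14, 10 and 13 of the 58, or 19.0%, 24.1%, 17.2% and 22.4%. The share with more entries was below that of all genes, given above, at all 4 later times, and the share with fewer was above it at 0.5 and 1 h and below it at 1.5 and 2 h. None of these gaps was tested, and the median difference was 0 at every time in the list and over all genes. Covered pathway genes numbered 42, 45, 39, 45 and 42 in time order, or 72.4%, 77.6%, 67.2%, 77.6% and 72.4%. The shares over all genes were 72.8%, 76.6%, 72.5%, 79.3% and 78.4%. As background for the roles below, 69.1% of all 8034 genes were covered in every library, 19.2% in none, and 30.3% held equal values, 0 included, in all 5.

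**Figure D3:**
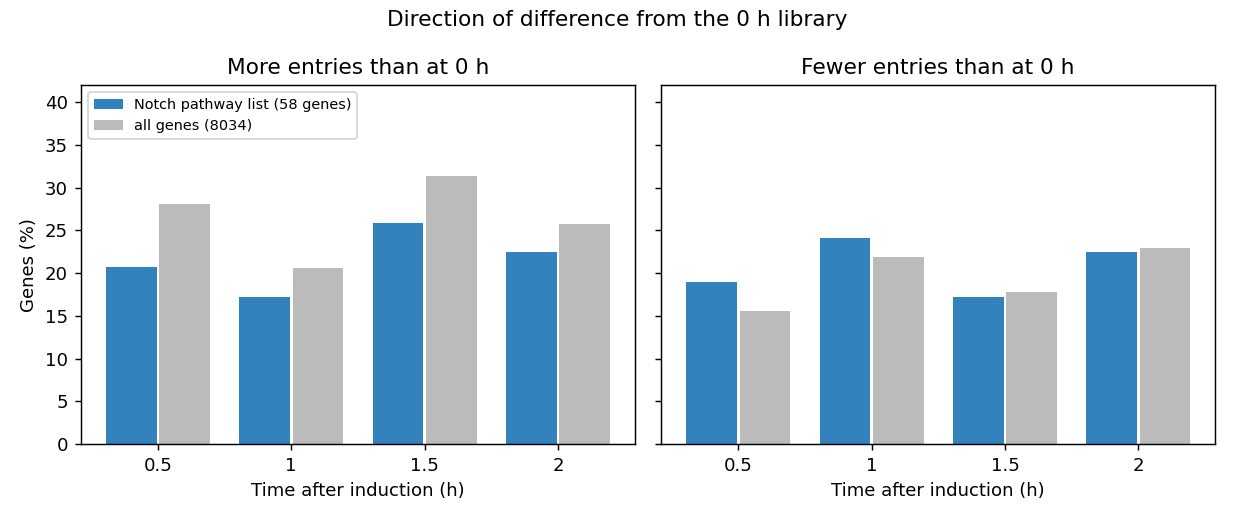
Share of genes in percent with more (left) and fewer (right) entries than at 0 h, for the 58 measured Notch pathway genes (blue) and all 8034 genes (grey), at each later time in h. At 0.5 h, 20.7% of the list and 28.1% of all genes held more, and 19.0% and 15.6% held fewer.

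Of the other receptors, named here after their values were seen, Notch3 held 0 in every library at a site 4143 bp inside the gene, and Notch4 held 4 at 0 h and 3 at each later time at a site 23306 bp inside. Of 7 measured ligands, 5 had equal values in all libraries, and 2 of the 5 were at 0 throughout. Among the 5 were Dll4, a Delta ligand, with 2 entries, and Dlk1, a non-canonical ligand, with 0. The Dll4 site lies 12174 bp downstream of the RefSeq 5′ end, past the gene by the deposited annotation, and not at its start. Dlk2, a non-canonical ligand, held 0, 0, 0, 2 and 3 entries in time order, a course close to that of the inner Hey1 sites. Of 5 measured proteases that cut the receptor, 4 were covered in every library and Furin in none.

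Among genes that modify or sort receptor and ligand, Rfng, a Fringe glycosyltransferase, held 1, 1, 0, 3 and 2 entries in time order, and Mib1, the ubiquitin ligase that drives ligand endocytosis, held 2, 1, 0, 3 and 0. All 8 measured genes of the nuclear complex and its coactivators were covered in every library at the site chosen for each. These sites need not be at the gene's start, and they lie up to 33331 bp inside the RefSeq gene. The acetyltransferase gene Ep300 held 2, 4, 5, 4 and 5 entries, and Kat2b, another acetyltransferase, held 3, 2, 3, 6 and 5. Of 13 corepressor genes, 11, 12, 9, 11 and 9 were covered in time order, beside 72.8%, 76.6%, 72.5%, 79.3% and 78.4% of all genes. Kdm5a, a histone demethylase, held 4, 4, 0, 4 and 0 entries. It was uncovered at 1 and 2 h, a course that none of the 4 genes followed here had. Tle3, a Groucho corepressor, held 1 entry at 0.5 h and 0 at the other times.

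Hes1 and Hey1 belong to a group of 10 measured target and feedback genes, counted at the 1 site chosen for each. Of these genes, 5 were covered in no library and 2 more, Hes1 and Hes7, held equal values in all libraries. Hes2 and Hes3 were among those at 0 throughout. The chosen sites at 0 throughout lie 180 to 6074 bp inside the RefSeq gene, those of Hes2 and Hes3 1486 and 1238 bp. The Hes7 site lies 3737 bp inside. These values therefore do not show whether the gene starts themselves were covered. Of the 10, 2, 1, 2 and 2 held more entries than at 0 h at the 4 later times, and Hey1 was 1 of them each time. By this choice of site, Hey1 was also the only gene of the 10 that was covered at some times and uncovered at others. Other Hes1 sites, described above, were covered at some times only.

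**Figure D4:**
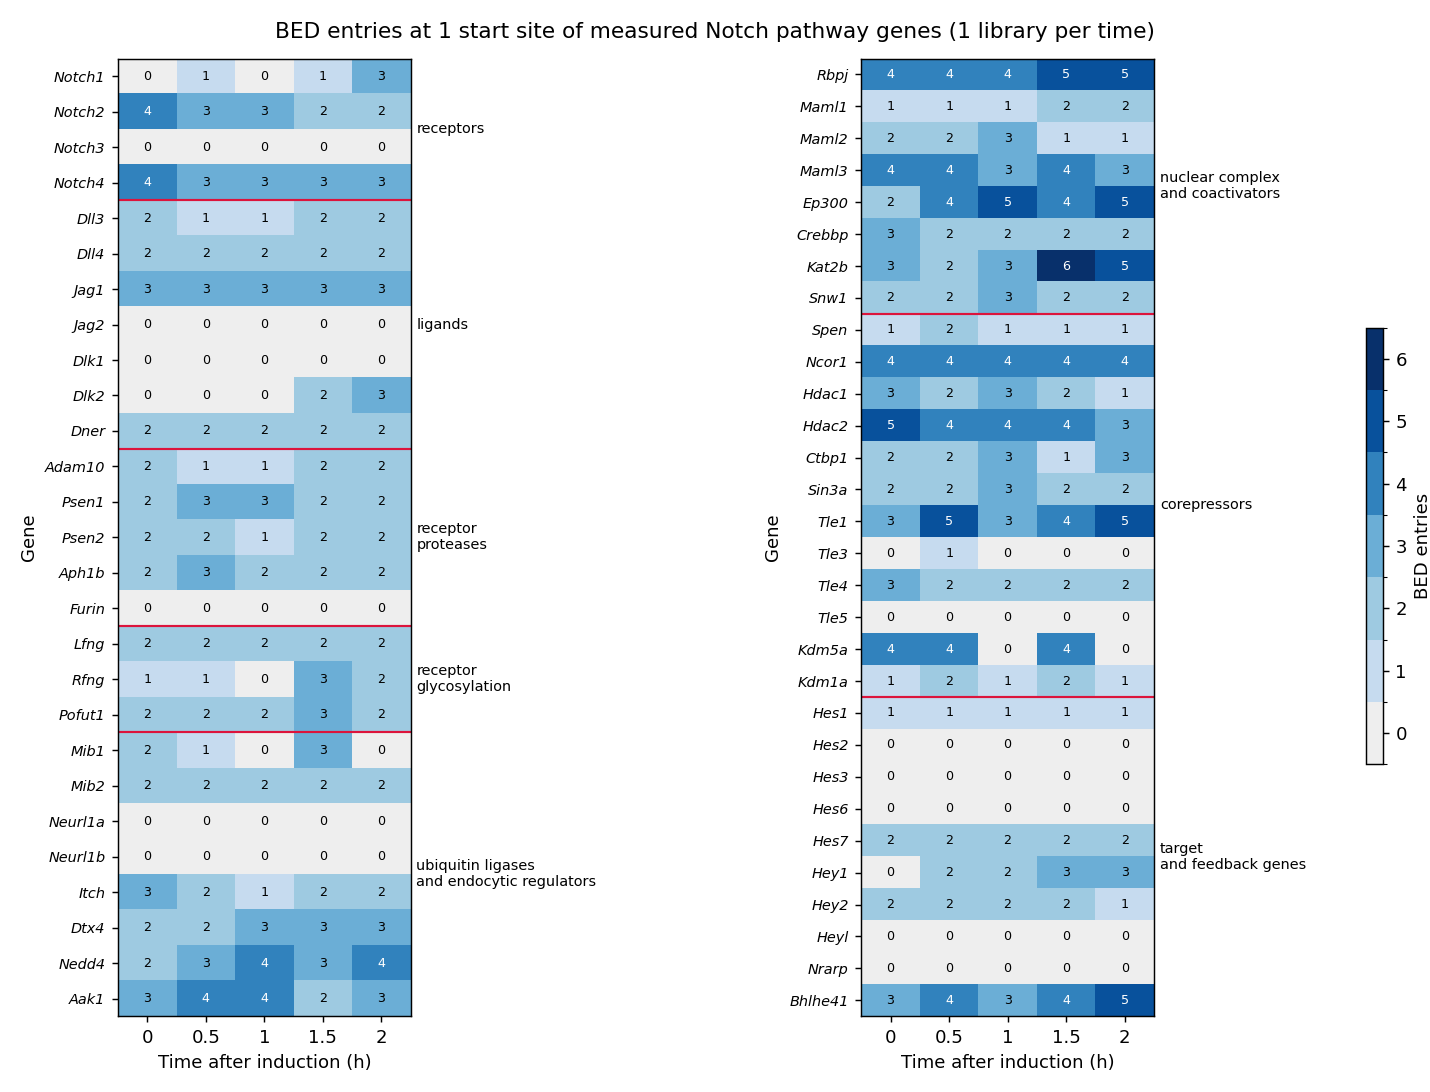
BED entries at 1 start site of each of 57 measured Notch pathway genes (rows, grouped by role, red lines between roles) at each time after induction in h (columns), with colour and number giving the entries. Most rows change by 1 entry or none, and Notch1, Hey1 and Dlk2 hold 0 at 0 h and 3 at 2 h.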

How the data were processed

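Per the submitters' processing notes, the authors used Bowtie2, MACS2 and deepTools with mouse build GRCm38 (mm10). For versions, settings, read shifting, duplicate handling and the origin of the site list, the sources used here say nothing. The deposited table gives per site and library a whole number, unscaled, in columns that are named after BED files per the file headers. Reading it as interval counts is an inference. Pairs of adjacent sites at most 200 bp apart were compared in each library separately, so a pair can count more than once. Of 56425 such comparisons with at least 2 entries at either site, 93.5% had equal values. In 98.6% of the 3659 unequal comparisons 1 site held 0, a pattern unlike separate reads. One number assigned to each called peak would look the same, and these readings cannot be told apart here. No count model or scaling was used. Read depth is unknown, so no interval is given. Gene names are those of the table; 5′ ends, promoter windows and exact-symbol matches come from RefSeq (GRCm38.p6), and exons, introns and UTRs were not annotated. Positions within genes count from the RefSeq 5′ end.

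Python 3.11.15, pandas 2.3.3 and numpy 2.4.6 were used, and the counting was tested on simulated data with planted differences. The 4 genes and the pathway list were chosen with earlier results of these data known. Named pathway genes are those covered in some libraries but not others, or ranging over 3 or more entries, plus examples in alphabetical order of genes equal in all libraries. One gene of the list is counted in its totals but not reported here by itself. Other site choices, thresholds, pseudocounts, a filter and a scaling were tried as alternatives.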

Additional observations from a re-analysis of the deposited data

How the results depend on the processing

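Each of 27 counts was recomputed under the alternatives, 196 values in all: 130 stayed within 1.5 times of the reported count and 66 did not. No paired analysis was possible because each time has 1 library. Hes1 moved these counts where another single site was taken: with the site nearest the RefSeq 5′ end, 1 of the 4 genes was covered at 0 h and 2 were higher at 1 h, and with the site highest at 0 h, 2 held fewer at every later time. With the median over sites, where Hey1 held 0, 0, 0, 3 and 3 entries, the genes with more numbered 1 at 0.5 h and 0 at 1 h, 27 pathway genes were covered at 0 h, and those with fewer were 6, 7, 6 and 8 from 0.5 to 2 h. Requiring 2 entries for coverage left 1 of the 4 genes covered at 0 h and 2 at 0.5 and at 1.5 h. At a 2-fold difference, with a pseudocount of 1 or 0.5, 0 of the 4 were lower at any time. Notch2, with 4 entries at 0 h and 2 at 1.5 and 2 h, misses it there only through the pseudocount. By the same rule the pathway list had 3, 2, 4 and 4 higher and 0, 5, 0 and 4 lower. At a difference of 2 entries, 1 of the 4 was higher at 0.5 and at 1.5 h and 0 were lower at 0.5 and 1 h, and the list had 3, 3, 5 and 8 higher and 0, 4, 1 and 6 lower. Restricted to genes with a mean of at least 2.2 entries (the median gene), which of the 4 leaves only Notch2, 0 were higher at any time, and the list, reduced to 24 genes, had 7, 8 and 8 higher at 0.5, 1.5 and 2 h and 7, 7 and 8 lower at 0.5, 1 and 2 h. With libraries scaled to sites covered in all 5, 1 of the 4 was higher by over 1 at 0.5 and at 1.5 h, and 3 and 5 of the list. By that rule the list's genes with fewer stayed at 11 at 0.5 h and 10 at 1.5 h. The cause of these shifts was not tested beyond what each rule removes. Joining sites at most 200 bp apart gave 11 intervals in place of 9, and 1000 bp gave 9. Values of 1 to 4 entries leave 1 entry as the smallest visible difference, and unknown depth limits all of them.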

Other observations

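Beyond the 3′ end of Hes1, 4 sites with no gene name lay within 183 bp (chr16:30070447-30070629, GRCm38), 2651 bp past the RefSeq end of Hes1 and 9 bp past that of the long noncoding RNA gene Gm32998, whose strand the gene table does not give. Of the 4 sites, 2, 3, 1, 4 and 4 were covered in the libraries of 0, 0.5, 1, 1.5 and 2 h, each with 2 entries where covered. The site furthest from Hes1 held 2 in every library, and the nearest held 2 at 1.5 and 2 h and 0 before. As at Hey1, neighbouring sites of a group differed in which libraries covered them.

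None of the nearest listed genes around the receptors held the same 5 values as its receptor. Sec16a, a gene of secretory pathway exit sites 58.2 kb from Notch1, held 3, 4, 4, 4 and 3 entries from 0 to 2 h. Egfl7, the host gene of miR-126, 82.8 kb to the other side, held 2, 1, 1, 2 and 2. Prkab2, a subunit of AMP-activated protein kinase, 355 kb from Notch2, held 3, 2, 2, 2 and 2, like Notch2 never upward and lower at 2 h than at 0 h. Zfp697, 414 kb to the other side, held 0 in every library.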
